A study of Mus musculus with 12 samples.

Results

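Genes of the endoplasmic reticulum (ER) stress response and the integrated stress response were followed in cultured fibro-adipogenic progenitors (FAPs), a mesenchymal cell type of skeletal muscle. The members are 36 genes listed by symbol for their known function (ATF4 targets, sensors of unfolded protein and ER chaperones). They were chosen with earlier results of these data known. All 36 were found among the 55335 gene rows of the count files, and all 36 were among the 16597 genes with enough reads to test. They were read as 3 arms: 16 genes of the ATF4 arm, 7 of the XBP1 arm and 13 of the ATF6 arm. The split is approximate, since several ER chaperones are targets of more than 1 of these factors.

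The libraries come from mouse limb muscle cells sorted as 7AAD-, Lin-, Vcam- and Sca1+ and cultured in alpha-MEM. All groups had 20% FBS, with 24 hours given for the medium change. There were 4 groups of 3 libraries: WT, given ethanol; Bap1KO, given 4-hydroxytamoxifen (4-OHT) to delete Bap1, which codes for a nuclear deubiquitinase; Smn1OE, given 4-OHT and a vector for human SMN; and Smn1OE_K186R, given 4-OHT and a vector for the K186R point mutant of human SMN. By their labels, Bap1KO, Smn1OE and Smn1OE_K186R all share treatment with 1 uM 4-OHT meant to delete Bap1. Groups are called by their labels here, so WT names the ethanol-treated group and does not state a genotype. The treatment text names Rosa-CreER as the driver of deletion, and the source label names Prrx1Cre;Bap1f/f, a line with floxed Bap1. None of the groups had an empty vector, SMN without 4-OHT, or 4-OHT with Bap1 intact. Of 6 culture media batches named in the labels, 3 pair a WT with a Bap1KO library and the other 3 pair an Smn1OE with an Smn1OE_K186R library, so setting an SMN group against Bap1KO or WT also sets batch against batch. The labels do not say whether replicates came from separate animals, so p-values measure the spread between these libraries, which may be technical.

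The unfolded protein response starts from 3 sensors in the ER membrane. IRE1 (gene Ern1) splices the Xbp1 mRNA into the form that codes for an active transcription factor; PERK (Eif2ak3) phosphorylates eIF2alpha, which slows translation in general but favours that of ATF4; and ATF6 is cut in the Golgi to free a transcription factor that drives chaperone genes. The integrated stress response reaches ATF4 through the same phosphorylation of eIF2alpha by other kinases, such as those that sense amino acid shortage. FAPs secrete much of the collagen matrix of muscle, which passes through the ER folding machinery. Gene counts do not measure splicing of Xbp1, translation of Atf4 or cutting of ATF6.

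Depth was 51198342 to 68216089 counts per library. Bap1 was read at 49.7 to 52.0 CPM (counts scaled to a common library size, with edgeR's TMM factors) in WT, 39.3 to 42.3 in Bap1KO, 47.46 to 50.04 in Smn1OE and 41.7 to 47.3 in Smn1OE_K186R, so that Bap1KO and Smn1OE_K186R lay below WT while Smn1OE overlapped with it. Gene counts do not show which exons these reads cover, so the deletion itself was not checked in any group. Smn1 was at 3688 to 5593 CPM in the SMN groups and at 30.5 to 35.1 CPM in the others. Smn1 is the mouse gene while the labels name vectors for human SMN, and the source of these reads was not checked. Xist was at 197 to 305 CPM in WT and Bap1KO and at 0 to 0.113 CPM in the SMN groups, while the Y-linked gene Eif2s3y was at 0 in WT and Bap1KO and at 57.9 to 69.7 CPM in the SMN groups. The SMN groups therefore differ from WT and Bap1KO in sex-linked expression as well as in batch and vector, and these cannot be told apart. The summed level of 12 FAP and fibroblast markers, none of them at 0, was 20541 to 30366 CPM in WT, 12870 to 23081 in Bap1KO, 4774 to 7613 in Smn1OE and 5764 to 8391 in Smn1OE_K186R. Col1a1, Col1a2 and Col3a1 made up 81.2 to 90.6% of this sum in each library, and the other 9 markers summed to 2547 to 2949 CPM in WT, 1707 to 2317 in Bap1KO, 777 to 1167 in Smn1OE and 935 to 1285 in Smn1OE_K186R. In Bap1KO against WT, 1 of the 12 was called lower, and 11 with the media batch as a block. Of these 12 markers, 9 were called lower in Smn1OE and 7 in Smn1OE_K186R against Bap1KO, with 1 called higher in each. Among markers of other cells, Cd3e (T cells) and Myf5 (myogenic) had no reads in any library, Pax7 and Myod1 reached at most 0.0189 CPM, and Adgre1 (macrophage) at most 0.0155 CPM. The 10 macrophage markers, 6 of them under 1 CPM in every library, summed to 26.6 to 32.5 CPM in WT and 28.5 to 36.4 in Bap1KO. Their sum was 22.8 to 28.3 CPM in Smn1OE and 22.3 to 30.7 in Smn1OE_K186R. Of these, Cd68 (log2 1.79) and Ptprc (4.48) were called higher in Smn1OE against WT, and Lyz2 (-1.12) and Cd14 (-1.39) lower. Ptprc is among the 6 markers under 1 CPM, with 73 reads over all libraries. In Bap1KO against WT, Cd14 was called lower too (log2 -1.31). Cd68 (0.64), Lyz2 (-0.40) and Ptprc (-0.74) were not called there without the block. A summed level of 10 myogenic markers of 114 to 167 CPM in WT, 153 to 355 in Bap1KO, 349 to 607 in Smn1OE and 278 to 565 in Smn1OE_K186R was carried by Acta1. A summed level of 5 tenocyte markers moved with the groups too, at 237 to 415 CPM in WT, 184 to 454 in Bap1KO, 25.9 to 37.8 in Smn1OE and 36.9 to 59.4 in Smn1OE_K186R. Of the 5, Scx, Tnmd, Mkx and Fmod had reads in every library, and Fmod carried the sum. Against WT, Fmod (log2 -3.97) and Tnmd (-3.15) were called lower in Smn1OE, and Mkx (-0.66) was not called. Scx went the other way, called higher in Bap1KO against WT (log2 1.08) and in Smn1OE against WT (0.69). Both Scx calls were lost under some omission of a library (adjusted p up to 0.0527 and 0.0951 in edgeR). The summed level of 7 pericyte markers was 103 to 140 CPM in WT, 107 to 144 in Bap1KO, 121 to 226 in Smn1OE and 112 to 208 in Smn1OE_K186R, carried by Cspg4 and Mcam, with Higd1b at 0 in every library. In Smn1OE against WT, Mcam was called higher (log2 1.03), and Kcnj8 (-2.30) and Abcc9 (-1.60) lower. Of these calls, that of Abcc9 alone held under every omission of a library (adjusted p up to 0.0289 in edgeR). In Bap1KO against WT, Abcc9 was called lower too (log2 -1.62), a call lost under some omission (adjusted p up to 0.105 in edgeR). Kcnj8 (-1.72) and Mcam (-0.43) were called there with the block only, both lower. The 8 B and plasma cell markers summed to 369 to 429 CPM in WT, 257 to 312 in Bap1KO, 127 to 165 in Smn1OE and 139 to 201 in Smn1OE_K186R, of which 7 were under 1 CPM in every library and Sdc1 was the rest. The part of these markers, of batch and of sex in the results below was not tested, and in bulk RNA fewer cells of a type and less RNA per cell cannot be told apart.

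All 36 genes were expressed, with at least 364 reads in each library. Per length of exon (RPKM), the most abundant in WT were the ER lumen chaperone Calr at 800 RPKM, the disulfide isomerase Pdia3 at 559, the HSP90 of the ER, Hsp90b1, at 410, and the HSP70 of the ER, Hspa5, at 333. The least abundant were the IRE1 gene Ern1 at 1.88 RPKM and the cystine transporter gene Slc7a11 at 0.410 RPKM. From the lowest to the highest of the 12 libraries, a member's CPM differed 1.18-fold (Hyou1) to 11.8-fold (Slc7a11), with a median of 1.59-fold, and 7 of the 36 differed at least 2-fold. In the heat map of all members, most of the ATF6 arm is lowest in the SMN groups, while Ddit3, Slc7a11, Ern1, Dnajb9 and Atf6 are highest there.

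**Figure D1:**
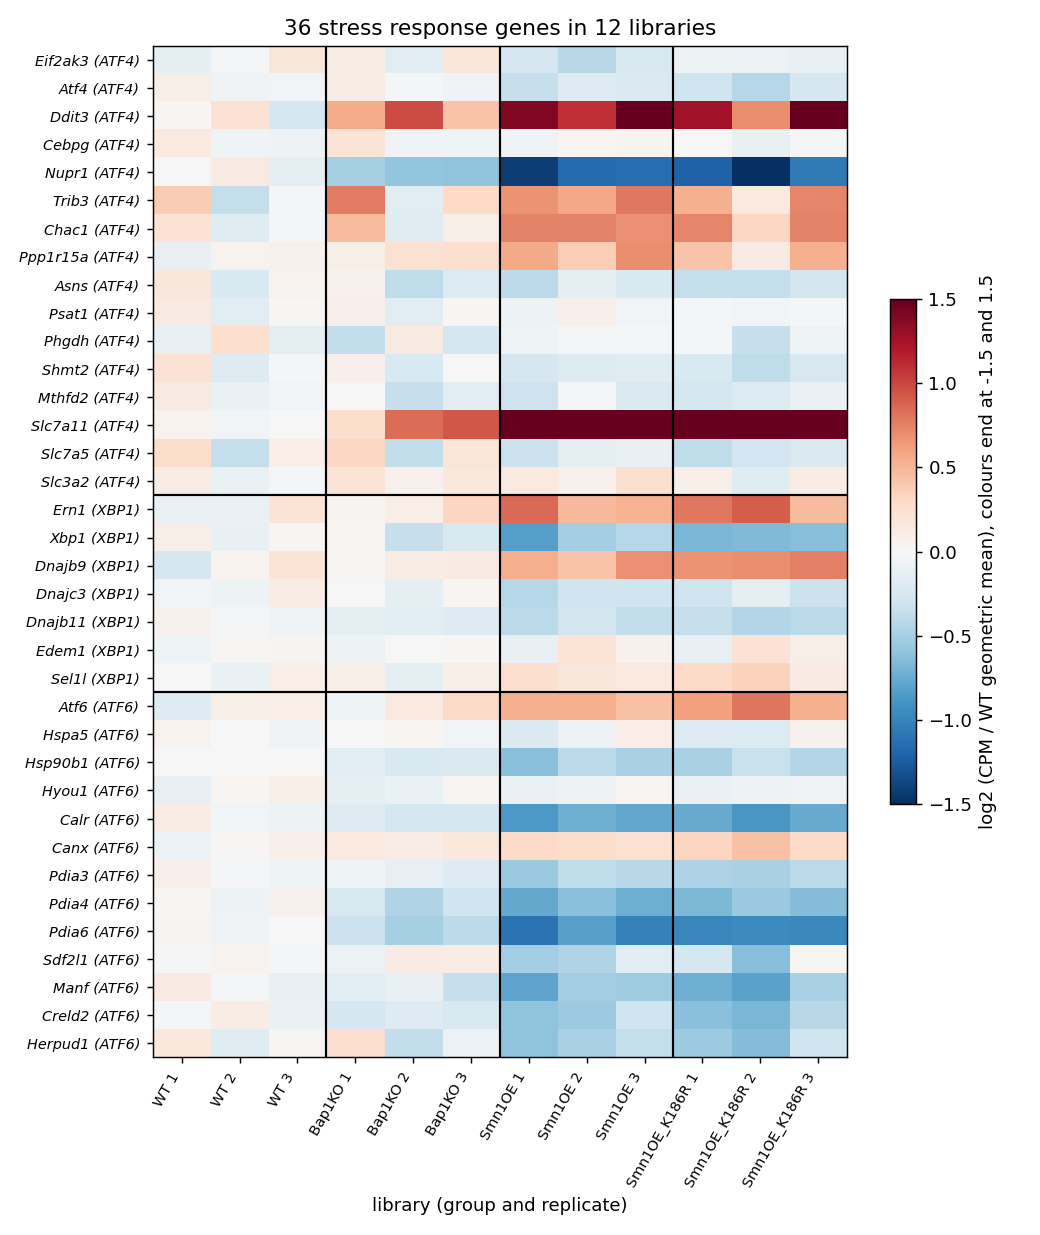
Level of each of the 36 genes (rows, with their arm) in each of the 12 libraries (columns, by group and replicate), as the log2 ratio of CPM to the geometric mean of the 3 WT libraries. Blue is lower and red higher, and colours end at -1.5 and 1.5, which Slc7a11 passes in every SMN library.

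In Bap1KO against WT, few members were called in edgeR without the media batch as a block. Nupr1, which codes for a small chromatin-bound stress protein, and the ER disulfide isomerases Pdia4 and Pdia6 fell, and no member rose. These are 3 of 36 members called at an adjusted p under 0.05 in edgeR's quasi-likelihood test, which is 8.33%. Of all genes tested 9.72% were called, 3.36% higher and 6.37% lower, so in this fit the members' share is near the background. At an unadjusted p under 0.05, 2 members were higher and 7 lower, 25% of the members where 26.2% of all genes were under it. DESeq2 called 6 members, with Ddit3 and Slc7a11 higher and Calr, Pdia6, Pdia4 and Nupr1 lower, where 15.9% of all genes were called, 7.05% higher and 8.89% lower. Each WT library has a Bap1KO library from the same media batch, and with that batch as a block 13 members were called, 4 higher and 9 lower, where 29% of all genes were called, 11.9% higher and 17.2% lower. The 4 were Ddit3, Slc7a11, Trib3 and Ppp1r15a, all of the ATF4 arm. The 9 were Calr, Dnajb11, Hsp90b1, Pdia6, Creld2, Pdia4, Asns, Nupr1 and Manf. With the block, 18 members (50%) and 39.6% of all genes were at an unadjusted p under 0.05. Of the 3 calls made without the block, Pdia6 alone held when each library of the 2 groups was left out in turn: Pdia4 was lost without WT replicate 1, WT replicate 3, Bap1KO replicate 2 or Bap1KO replicate 3 (adjusted p up to 0.0794), and Nupr1 without WT replicate 2 or Bap1KO replicate 3 (adjusted p up to 0.0627). Without Bap1KO replicate 3 the count was 1.

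With SMN added, calls in both directions were made in each arm. Against Bap1KO, 21 of 36 members were called in Smn1OE, 7 higher and 14 lower, where 33.5% of all genes were called, 15.8% higher and 17.7% lower. In Smn1OE_K186R, 17 of 36 were called, 5 higher and 12 lower, where 32.6% of all genes were called, 16.1% higher and 16.5% lower. The members called higher in Smn1OE were Slc7a11, Ddit3, Chac1, Ppp1r15a, Ern1, Dnajb9 and Atf6, and those in Smn1OE_K186R were Slc7a11, Ern1, Dnajb9, Atf6 and Canx. Of those called lower, 8 in each SMN group were of the ATF6 arm. The 2 comparisons use the same Bap1KO libraries and are given side by side for that reason. Leaving out Smn1OE replicate 1 reduced the 21 calls to 7, leaving out Bap1KO replicate 1 reduced them to 11, and leaving out Bap1KO replicate 3 to 14. The 7 calls that held under every omission of a library of the 2 groups were Slc7a11, Nupr1, Dnajb9, Calr, Pdia3, Pdia4 and Pdia6. In Smn1OE_K186R the count stayed between 13 and 19, and 11 of the 17 calls held under every omission: Slc7a11, Nupr1, Atf4, Ern1, Xbp1, Dnajb9, Atf6, Calr, Pdia3, Pdia6 and Manf. DESeq2 called 8 members higher and 12 lower in Smn1OE_K186R, where 36.5% of all genes were called, 18.5% higher and 18% lower.

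Against WT, 23 members were called in Smn1OE, 9 higher and 14 lower, where 50.4% of all genes were called, 23.8% higher and 26.6% lower. In Smn1OE_K186R, 24 were called, 9 higher and 15 lower, where 50.5% of all genes were called, 24% higher and 26.5% lower. The plot of fold changes gives each member's difference and its error.

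**Figure D2:**
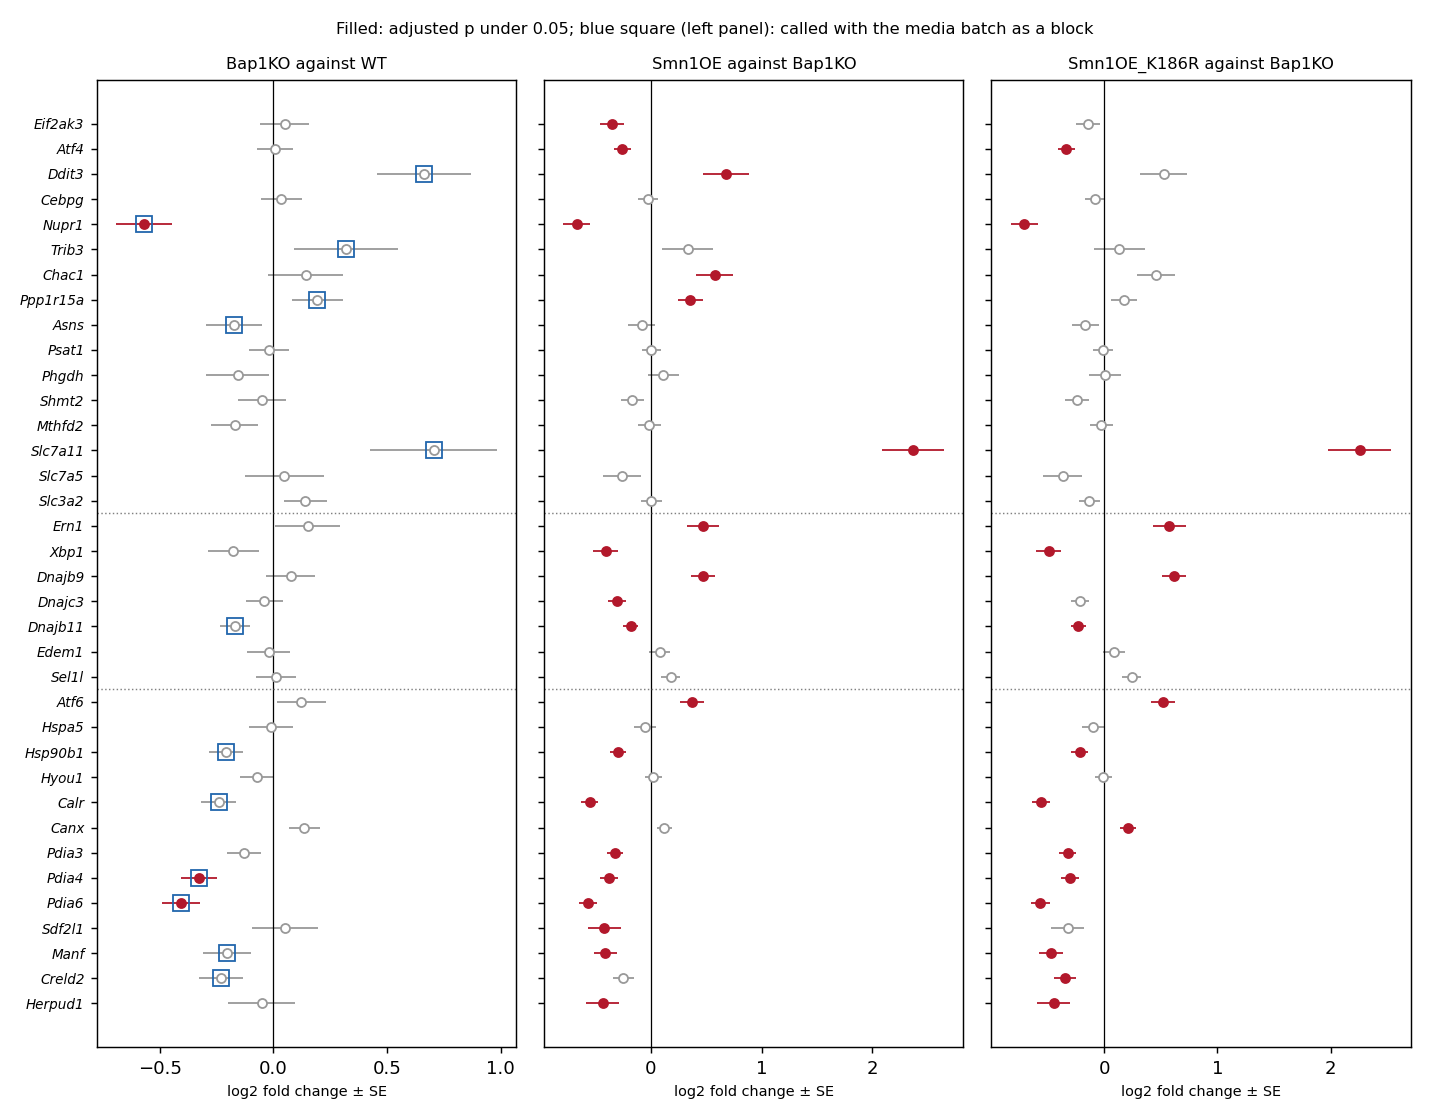
Log2 fold change (x axis) with its standard error for each of the 36 genes (rows, grouped by arm with dotted lines) in 3 comparisons. Filled red points have an adjusted p under 0.05 in edgeR, and blue squares in the left panel mark the 13 genes called with the media batch as a block; the x axis of the left panel spans a smaller range than the other panels, where Slc7a11 stands at 2.37 and 2.26.

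The mutant and the wild-type SMN were not separated by any member. In Smn1OE_K186R against Smn1OE, edgeR called 0 of 36 members and 0% of all 16597 genes, and at an unadjusted p under 0.05 it gave 388 genes and 0 members. DESeq2 called 0 genes. Blocked on media batch, the fit called 48 genes, which is 0.289% of all genes, and again 0 members, with 6 members (16.7%) and 11.5% of all genes at an unadjusted p under 0.05. The log2 differences of the 36 members lay between -0.19 (Trib3) and 0.21 (Eif2ak3). Their standard errors ran from 0.06 for Dnajb11 to 0.26 for Slc7a11, and no difference of the size seen, up to 0.21, was called.

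Atf4 codes for the effector of the integrated stress response and heads the ATF4 arm. Its mRNA was at 444, 404 and 407 CPM in WT and at 450, 411 and 402 CPM in Bap1KO. It was at 329, 365 and 361 CPM in Smn1OE and at 340, 311 and 352 CPM in Smn1OE_K186R. All 6 SMN libraries lay below all 6 libraries without an SMN vector, while WT and Bap1KO overlapped. Against Bap1KO, Atf4 mRNA was lower by a log2 difference of -0.26 ± 0.08 (SE) in Smn1OE (adjusted p = 0.0258) and of -0.33 ± 0.08 in Smn1OE_K186R (adjusted p = 0.00838). The call in Smn1OE was lost without Bap1KO replicate 1 or Smn1OE replicates 1 or 3 (adjusted p up to 0.118).

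Ddit3 codes for CHOP, a transcription factor made under prolonged ER stress. It was at 64.0, 73.0 and 52.7 CPM in WT, 92.6, 123 and 84.6 in Bap1KO, 164, 134 and 182 in Smn1OE, and 150, 101 and 182 in Smn1OE_K186R. Every Bap1KO library lay above every WT library, and the Smn1OE libraries lay above both, while Smn1OE_K186R overlapped with Bap1KO. In Bap1KO against WT the log2 difference was 0.66 ± 0.21 (adjusted p = 0.0641), and with the media batch as a block, where all 3 pairs were higher, the adjusted p was 3.94e-05. Ddit3 rose 1.60-fold in Smn1OE against Bap1KO (adjusted p = 0.0264), a call that was lost without Bap1KO replicates 1 or 3 or Smn1OE replicates 1 or 3 (adjusted p up to 0.0967). In Smn1OE_K186R against Bap1KO the log2 difference was 0.53 ± 0.21 (adjusted p = 0.0685). Against WT it was 2.53-fold higher in Smn1OE and 2.28-fold higher in Smn1OE_K186R (adjusted p = 0.000335 and 0.000679). A small part of the Ddit3 exons is shared with a second Ddit3 gene ID, which had no reads, and with Mars1 on the other strand, so some of its reads may have been left uncounted.

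Slc7a11 changed most of all members. It codes for the transport subunit of the cystine and glutamate exchanger, which brings in cystine for glutathione. It was at 5.90, 5.55 and 5.68 CPM in WT, 6.87, 10.2 and 10.9 in Bap1KO, 65.6, 29.5 and 49.1 in Smn1OE, and 57.7, 32.8 and 43.2 in Smn1OE_K186R. No group overlapped with another except the 2 SMN groups. Slc7a11 was 5.16-fold higher in Smn1OE than in Bap1KO (log2 2.37 ± 0.28, adjusted p = 0.000274) and 4.78-fold higher in Smn1OE_K186R (log2 2.26 ± 0.28, adjusted p = 0.000425). Its partner in the exchanger, the heavy chain gene Slc3a2, was not called in any comparison, with group means of 249 to 275 CPM. Between Bap1KO and WT, Slc7a11 had a log2 difference of 0.71 ± 0.28 (adjusted p = 0.131), and it was higher in all 3 batch pairs (adjusted p = 0.00132 with the block).

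Nupr1 went the opposite way. It was at 106, 116 and 96.6 CPM in WT, 75.1, 70.2 and 69.6 in Bap1KO, 39.9, 47.5 and 47.9 in Smn1OE, and 45.6, 35.5 and 50.8 in Smn1OE_K186R. WT lay above Bap1KO and Bap1KO above both SMN groups, with no overlap. Nupr1 fell 1.48-fold in Bap1KO against WT (adjusted p = 0.0141), 1.59-fold in Smn1OE against Bap1KO (adjusted p = 0.00219) and 1.63-fold in Smn1OE_K186R against Bap1KO (adjusted p = 0.00193).

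Chac1, a glutathione-degrading enzyme, rose 1.49-fold in Smn1OE against Bap1KO, from 18.7 ± 4.29 to 27.8 ± 0.595 CPM (SD, n = 3; adjusted p = 0.0196 in edgeR). Ppp1r15a, the phosphatase subunit that reverses eIF2alpha phosphorylation, rose 1.28-fold, from 115 ± 6.85 to 147 ± 17.0 CPM (SD, n = 3; adjusted p = 0.0298 in edgeR). The call of Chac1 was lost without Bap1KO replicates 2 or 3 or Smn1OE replicate 1 (adjusted p up to 0.0631). That of Ppp1r15a was lost without Bap1KO replicates 1 or 3 or Smn1OE replicates 1 or 3 (adjusted p up to 0.122). In Smn1OE_K186R their log2 differences from Bap1KO were 0.46 ± 0.16 and 0.18 ± 0.11 and were not called (adjusted p = 0.0503 and 0.244). Trib3, a pseudokinase that inhibits CHOP and ATF4 output, was not called against Bap1KO, and was higher in Smn1OE than in WT by a log2 difference of 0.65 ± 0.23 (adjusted p = 0.0323), which was lost without WT replicates 2 or 3 or Smn1OE replicates 1 or 3 (adjusted p up to 0.119). Eif2ak3, the PERK gene, was lower in Smn1OE than in Bap1KO by a log2 difference of -0.35 ± 0.11 (adjusted p = 0.0253), with group means of 18.5 and 23.6 CPM, and this call was lost without Bap1KO replicates 1 or 3 or Smn1OE replicates 1 or 2 (adjusted p up to 0.0985). In Smn1OE_K186R the Eif2ak3 mean was 21.4 CPM (log2 difference from Bap1KO -0.15 ± 0.11, adjusted p = 0.318).

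Apart from Slc7a11, the genes of amino acid synthesis and uptake in the arm were not called against Bap1KO. There, none of Asns (asparagine synthesis), Psat1 and Phgdh (serine synthesis), Shmt2 and Mthfd2 (mitochondrial folate cycle), Slc7a5 and Slc3a2 (large neutral amino acid transport) was called in either SMN group. Their log2 differences lay between -0.26 and 0.11 in Smn1OE and between -0.37 and 0.01 in Smn1OE_K186R, at both ends for Slc7a5 and Phgdh. Against WT, Asns and Shmt2 were lower in Smn1OE_K186R (log2 -0.34 ± 0.12 and -0.29 ± 0.11, adjusted p = 0.0363 and 0.0366), calls that were each lost without WT replicates 1 or 3 or any Smn1OE_K186R library (for Asns, adjusted p up to 0.149 and for Shmt2 0.177). Cebpg, which codes for a dimer partner of ATF4, stayed at group means of 42.4 to 44.8 CPM with no call. Over the arm, 4 of 16 genes rose and 3 fell in Smn1OE against Bap1KO, with a median log2 difference of -0.01, and 1 rose and 2 fell in Smn1OE_K186R, with a median of -0.05. In percent these are 25 higher and 18.8 lower in Smn1OE, where 15.8% and 17.7% of all genes were called, and 6.25 and 12.5 in Smn1OE_K186R, where 16.1% and 16.5% were, so the arm was near or below the background. In Smn1OE the counts became 1 higher and 1 lower without Smn1OE replicate 1, 2 and 2 without Smn1OE replicate 3, 2 and 1 without Bap1KO replicate 1, and 1 and 2 without Bap1KO replicate 3. In Smn1OE_K186R they became 3 and 2 without Smn1OE_K186R replicate 2, 2 and 2 without Bap1KO replicate 1, and 2 and 4 without Bap1KO replicate 2.

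The letters of the ATF4 response element were searched in the 250 bases upstream of the RefSeq transcription starts (build GRCm38.p6). Windows were matched for 32 of the 36 members, with 2 for Psat1. The core TGATGNAA, searched on both strands, was in 5 of the 33 member windows and in 3.45% of all 32851 windows. It was in the windows of 4 ATF4 arm genes, shown here 5′ to 3′ on the gene's strand with the core (or its reverse complement) in capitals, because they include Slc7a11 and Nupr1, which moved in opposite directions.
Slc7a11, chr3:50443639-50443693, minus strand: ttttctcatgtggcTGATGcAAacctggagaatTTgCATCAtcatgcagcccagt
Asns, chr6:7693211-7693246, minus strand: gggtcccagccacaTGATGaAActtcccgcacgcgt
Chac1, chr2:119351035-119351070, plus strand: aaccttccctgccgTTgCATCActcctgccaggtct
Nupr1, chr7:126625559-126625594, minus strand: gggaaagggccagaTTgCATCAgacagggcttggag
Slc7a11 alone of these held the core 2 times, at 66 to 59 and at 47 to 40 bases before its start. Of the 4 genes, Slc7a11 and Chac1 rose, Nupr1 fell and Asns was not called in Smn1OE against Bap1KO, so the core was present with either direction. The fifth window with the core belongs to Herpud1 of the ATF6 arm. A match is a description of these letters and not a measured binding site. Members of this arm were listed as ATF4 targets, so a share above that of all windows is no independent result.

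In the XBP1 arm, the sensor and its substrate moved in opposite directions. Xbp1 mRNA, counted with its spliced and unspliced forms together, was at 142, 124 and 136 CPM in WT, 137, 105 and 114 in Bap1KO, 75.8, 92.9 and 99.9 in Smn1OE, and 83.0, 84.6 and 85.8 in Smn1OE_K186R. The SMN libraries all lay below the libraries without an SMN vector. Xbp1 fell by 0.41 ± 0.11 in Smn1OE and by 0.49 ± 0.11 in Smn1OE_K186R on the log2 scale against Bap1KO (adjusted p = 0.0170 and 0.00747), and the first call was lost without Bap1KO replicate 1 or Smn1OE replicate 1 (adjusted p up to 0.0826). Ern1 rose 1.38-fold and 1.49-fold, from 17.1 ± 1.77 CPM in Bap1KO to 23.6 ± 3.33 in Smn1OE and 25.5 ± 3.91 in Smn1OE_K186R (SD, n = 3; adjusted p = 0.0258 and 0.0101 in edgeR). The call in Smn1OE was lost without Bap1KO replicates 1 or 2 or Smn1OE replicate 1 (adjusted p up to 0.110).

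Dnajb9, which codes for an ER co-chaperone of BiP that binds IRE1, was the XBP1 arm gene with the firmest rise. It was at 20.1, 24.8 and 27.6 CPM in WT, 24.3, 26.0 and 26.2 in Bap1KO, 35.0, 32.2 and 38.7 in Smn1OE, and 38.1, 38.8 and 40.4 in Smn1OE_K186R. All SMN libraries lay above all others, and WT and Bap1KO overlapped. Dnajb9 rose 1.38-fold in Smn1OE and 1.53-fold in Smn1OE_K186R against Bap1KO (adjusted p = 0.00703 and 0.00205).

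The other co-chaperones of BiP in the arm fell. Dnajc3 was lower in Smn1OE than in Bap1KO by a log2 difference of -0.31 ± 0.08 (adjusted p = 0.0124), and by -0.22 ± 0.08 in Smn1OE_K186R, where it was not called (adjusted p = 0.0562). Dnajb11 was lower by -0.18 ± 0.07 and -0.23 ± 0.07 (adjusted p = 0.0453 and 0.0186). In Smn1OE the call of Dnajc3 was lost without Smn1OE replicate 1 (adjusted p up to 0.0535) and that of Dnajb11 without any Bap1KO library or Smn1OE replicates 1 or 3 (adjusted p up to 0.146). In Smn1OE_K186R that of Dnajb11 was lost without Bap1KO replicate 1 (adjusted p up to 0.0659). The degradation factors Edem1, a lectin-like mannosidase, and Sel1l, the adaptor of the HRD1 ubiquitin ligase, were not called against Bap1KO, and Sel1l was higher in Smn1OE_K186R than in WT (log2 0.25 ± 0.09, adjusted p = 0.0300), a call lost without WT replicates 1 or 2 or Smn1OE_K186R replicates 1 or 2 (adjusted p up to 0.114). Over the arm, 2 of 7 genes rose and 3 fell in Smn1OE against Bap1KO, and 2 rose and 2 fell in Smn1OE_K186R, with medians of 0.08 and 0.09. The shares of all genes called higher and lower were 15.8% and 17.7% in Smn1OE, and 16.1% and 16.5% in Smn1OE_K186R. The Smn1OE counts were 1 higher and 0 lower without Smn1OE replicate 1, 1 and 1 without Bap1KO replicate 1, and 1 and 2 without Bap1KO replicate 2, and in Smn1OE_K186R 1 gene was lower without Bap1KO replicate 1.

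In the ATF6 arm, made up mostly of chaperones, 8 of 13 genes fell in each SMN group. Its summed level was 9418 to 9967 CPM in WT, 8504 to 8848 in Bap1KO, 6632 to 7328 in Smn1OE and 7012 to 7390 in Smn1OE_K186R, with no overlap between WT, Bap1KO and the SMN groups. Calr, Pdia3, Hsp90b1 and Hspa5 had the most reads of the arm and weigh most in this sum. Against Bap1KO, 8 of 13 genes (61.5%) fell and 1 rose in Smn1OE, where 17.7% of all genes were called lower and 15.8% higher, and 8 fell and 2 rose in Smn1OE_K186R, where 16.5% and 16.1% were. The median log2 differences were -0.33 and -0.32, where those of all genes tested were -0.01 and -0.01. Without Smn1OE replicate 1 the genes called lower in Smn1OE were 4, namely Calr, Pdia3, Pdia4 and Pdia6, and without Smn1OE_K186R replicate 1 or Bap1KO replicate 1 those called lower in Smn1OE_K186R were 5. In Bap1KO against WT the median was -0.13, with 2 of 13 genes called lower, and 6 with the media batch as a block, where 6.37% and 17.2% of all genes were. Only 1 of the 2 was called without WT replicate 1 or 3 or without Bap1KO replicate 2 or 3. The FAP marker sums given above were also lowest in the SMN groups, and their part in the fall of this arm was not tested.

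Atf6 itself rose. Its mRNA was at 50.7, 61.7 and 62.2 CPM in WT, 55.3, 64.1 and 70.8 in Bap1KO, 83.6, 84.3 and 78.7 in Smn1OE, and 88.4, 101 and 83.6 in Smn1OE_K186R. The SMN libraries all lay above those of the other groups. Atf6 rose 1.30-fold in Smn1OE and 1.43-fold in Smn1OE_K186R against Bap1KO (adjusted p = 0.0203 and 0.00452), and the first call was lost without Bap1KO replicate 1 or Smn1OE replicates 1 or 2 (adjusted p up to 0.0805). The membrane lectin chaperone Canx rose with it in Smn1OE_K186R (log2 0.21 ± 0.07, adjusted p = 0.0354) and had a log2 difference of 0.12 ± 0.07 in Smn1OE (adjusted p = 0.200). The call of Canx was lost without any Bap1KO library or Smn1OE_K186R replicates 1 or 2 (adjusted p up to 0.0875).

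Hspa5 codes for BiP, the ER HSP70 that holds the sensors inactive and is the usual readout of ER stress. It was at 1459, 1411 and 1354 CPM in WT, 1397, 1436 and 1365 in Bap1KO, 1214, 1327 and 1506 in Smn1OE, and 1234, 1220 and 1473 in Smn1OE_K186R. The groups overlapped, and the SMN groups spread more widely than the others. Hspa5 was not called in any comparison, with log2 differences from Bap1KO of -0.05 ± 0.10 in Smn1OE and -0.10 ± 0.10 in Smn1OE_K186R. The sign of the difference between Bap1KO and WT, -0.01 ± 0.10, changed with the scaling used. Hyou1, the large HSP70-like partner of BiP, was the member with the least spread and was not called either.

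Calr, a calcium-binding lectin chaperone of glycoproteins, stood lower at each step, though Bap1KO against WT was not called in edgeR without the block. It was at 2491, 2239 and 2180 CPM in WT, 2015, 1910 and 1926 in Bap1KO, 1263, 1386 and 1341 in Smn1OE, and 1357, 1254 and 1360 in Smn1OE_K186R. WT lay above Bap1KO, and Bap1KO above both SMN groups, with no overlap. Calr fell 1.47-fold in each SMN group against Bap1KO (adjusted p = 0.000645 and 0.000698). In Bap1KO against WT the log2 difference was -0.24 ± 0.08 (adjusted p = 0.0699, and 0.0134 with the block), lower in all 3 batch pairs. This differs from its membrane-bound relative Canx, which did not fall in any comparison.

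Disulfide isomerases showed the same order of group means, with WT above Bap1KO and Bap1KO above the SMN groups. Pdia6 was at 770, 719 and 748 CPM in WT, 594, 527 and 567 in Bap1KO, 347, 424 and 368 in Smn1OE, and 378, 384 and 381 in Smn1OE_K186R. It fell 1.33-fold in Bap1KO against WT (adjusted p = 0.0116) and 1.48-fold in each SMN group against Bap1KO (adjusted p = 0.000745 and 0.000933), with no overlap at either step. Pdia4 was at 434, 407 and 451 CPM in WT, 365, 314 and 351 in Bap1KO, 253, 280 and 259 in Smn1OE, and 269, 292 and 274 in Smn1OE_K186R. It fell 1.26-fold in Bap1KO against WT (adjusted p = 0.0239), and 1.30-fold and 1.23-fold in the SMN groups against Bap1KO (adjusted p = 0.00412 and 0.0127). Its call in Smn1OE_K186R was lost without Bap1KO replicate 1 (adjusted p = 0.0511). Pdia3, the partner of Calr and Canx in glycoprotein folding, was at 1607 ± 74.0 CPM in Bap1KO and at 1282 ± 79.4 and 1284 ± 35.6 in the SMN groups (SD, n = 3), 1.25-fold lower in each (adjusted p = 0.00703 and 0.00782 in edgeR). Per length of exon, the Pdia3 mean was 559 RPKM in WT and 512 in Bap1KO, a difference that was not called with or without the block.

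Among the remaining members of the arm, Manf, a secreted ER-resident stress factor, fell 1.33-fold in Smn1OE and 1.39-fold in Smn1OE_K186R against Bap1KO (adjusted p = 0.0124 and 0.00689). Hsp90b1 fell 1.23-fold and 1.16-fold (adjusted p = 0.0109 and 0.0458). Herpud1, a membrane protein of ER-associated degradation, fell 1.35-fold and 1.36-fold (adjusted p = 0.0388 and 0.0356), although its Bap1KO libraries, at 56.1 to 85.8 CPM, overlapped with both SMN groups. Creld2, an ER protein with isomerase activity, fell in Smn1OE_K186R alone (log2 -0.34 ± 0.10, adjusted p = 0.0182, and -0.25 ± 0.10 with adjusted p = 0.0649 in Smn1OE), and Sdf2l1, a cofactor of ER chaperones, in Smn1OE alone (log2 -0.42 ± 0.15, adjusted p = 0.0443, and -0.32 ± 0.15 with adjusted p = 0.111 in Smn1OE_K186R). The difference between the SMN groups was not called for either gene. In Smn1OE the call of Herpud1 was lost without Bap1KO replicates 1 or 3 or any Smn1OE library (adjusted p up to 0.191), and that of Sdf2l1 without any Bap1KO library or Smn1OE replicates 1 or 2 (adjusted p up to 0.144). Those of Manf and Hsp90b1 were lost without Smn1OE replicate 1 (adjusted p = 0.0546 and 0.0504). In Smn1OE_K186R the call of Hsp90b1 was lost without any Bap1KO library or Smn1OE_K186R replicates 1 or 3 (adjusted p up to 0.135), that of Herpud1 without Bap1KO replicates 1 or 3 or Smn1OE_K186R replicates 1 or 2 (adjusted p up to 0.167) and that of Creld2 without Smn1OE_K186R replicates 1 or 2 (adjusted p up to 0.0582). Reads of Hsp90b1 and Manf may be affected by genes that overlap their exons on the other strand, over 10.3% of exon length by a pseudogene for Hsp90b1 and 4.14% by Dcaf1 for Manf.

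**Figure D3:**
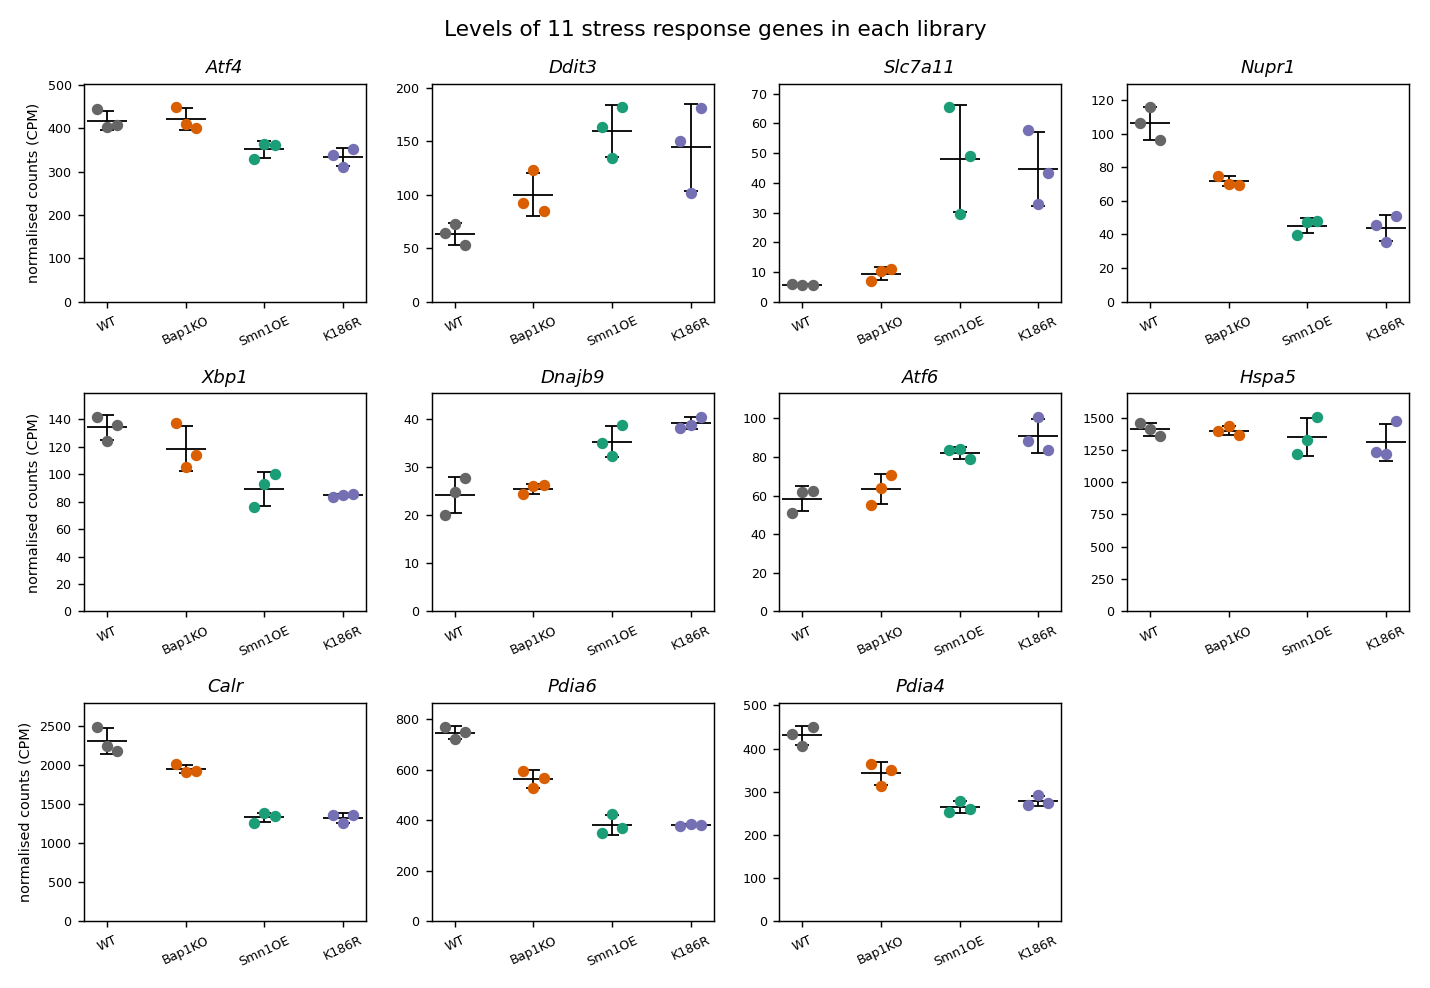
CPM (y axis, from 0) of 11 genes in each library; points are single libraries, horizontal bars the mean of 3 libraries and whiskers the SD, by group (the group marked K186R is Smn1OE_K186R). Slc7a11 and Ddit3 stand higher and Nupr1, Calr and Pdia6 lower in the SMN groups than in WT, while Hspa5 overlaps in all 4 groups.

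The ER stress response element, CCAAT and CCACG with 9 bases between them, is the site through which ATF6 acts on chaperone promoters. These letters in this spacing, searched on both strands, were in 37 of 32851 upstream windows (0.113%) and in 7 of the 33 member windows. The arms were listed by known function and the element is the site of ATF6, so a high share among members is no independent result. Of the 7 member windows with the element, 6 were among the 10 ATF6 arm windows and 1 was Dnajc3 of the XBP1 arm. They are shown 5′ to 3′ on the gene's strand with the 2 ends of the element, or of its reverse complement, in capitals, since they are the promoters that share this element whichever way the gene moved.
Hspa5, chr2:34772015-34772053, plus strand: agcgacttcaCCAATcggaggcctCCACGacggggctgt
Calr, chr8:84847065-84847103, minus strand: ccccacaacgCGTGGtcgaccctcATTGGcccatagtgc
Pdia6, chr12:17266481-17266519, plus strand: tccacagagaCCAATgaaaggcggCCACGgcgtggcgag
Creld2, chr15:88819510-88819548, plus strand: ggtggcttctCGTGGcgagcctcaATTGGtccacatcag
Canx, chr11:50325790-50325828, minus strand: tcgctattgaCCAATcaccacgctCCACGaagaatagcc
Dnajc3, chr14:118937817-118937855, plus strand: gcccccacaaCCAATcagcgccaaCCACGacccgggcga
Hsp90b1, chr10:86705523-86705666, minus strand: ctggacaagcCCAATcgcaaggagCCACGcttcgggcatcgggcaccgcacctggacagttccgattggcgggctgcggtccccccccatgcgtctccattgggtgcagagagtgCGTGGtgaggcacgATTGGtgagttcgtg
Hsp90b1 held the element 2 times. Of the 7 genes, 4 fell and 0 rose in Smn1OE against Bap1KO (median log2 difference -0.30), and 4 fell and 1, Canx, rose in Smn1OE_K186R (median -0.22). All-gene shares were 17.7% lower in Smn1OE and 16.5% lower in Smn1OE_K186R. Without Smn1OE replicate 1 the 4 became 2 in Smn1OE, and without Smn1OE_K186R replicate 1 they became 2 in Smn1OE_K186R; Canx was not called without Smn1OE_K186R replicate 1 or 2 or without any 1 Bap1KO library. Of the 25 members with a window and no such element, 9 fell and 6 rose in Smn1OE (median -0.02), and 7 fell and 3 rose in Smn1OE_K186R (median -0.08). Most of the 25 are of the other 2 arms, so these medians do not separate the element from the arm. The ATF6 arm genes among the 25 are Pdia3, Pdia4, Sdf2l1 and Herpud1. All of them fell in Smn1OE, and all but Sdf2l1 in Smn1OE_K186R, without the element. Hspa5, with the element 65 to 47 bases before its start, did not move with Calr or Pdia6. The XBP1-type core TGACGTGG was in 0 of the 33 member windows and in 0.563% of all windows, which says only that these letters are not in these windows.

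Genes of the same pathways that are not among the 36 were counted from 9 further lists. Beside all their counts stand the shares of all genes: 15.8% called higher and 17.7% lower in Smn1OE against Bap1KO, 16.1% and 16.5% in Smn1OE_K186R against Bap1KO, and 3.36% and 6.37% in Bap1KO against WT. The largest shares lay in the machinery that brings proteins into the ER and folds them. Of 21 genes of the translocon, signal peptidase and N-glycosylation, 16 fell and 0 rose in Smn1OE against Bap1KO (median log2 -0.34), and 14 fell and 0 rose in Smn1OE_K186R (median -0.35). The calls with the smallest adjusted p were the oligosaccharyltransferase subunits Rpn1 (log2 -0.41 ± 0.07) and Rpn2 (-0.35 ± 0.07), the signal peptidase subunit Spcs2 (-0.36 ± 0.06) and the translocon-associated Ssr4 (-0.60 ± 0.11), with adjusted p = 0.0016, 0.00279, 0.00175 and 0.002. Without Smn1OE replicate 3, 11 of the 21 fell in Smn1OE. Of 18 oxidative folding and other ER folding enzymes, 13 fell and 0 rose in each SMN group (medians -0.45 and -0.51), and at least 11 fell when any 1 library of the compared groups was left out. They include Sil1, a nucleotide exchange factor of BiP (log2 -0.99 ± 0.07, adjusted p = 1.37e-05), the prolyl isomerase Fkbp11 (-1.002 ± 0.12, adjusted p = 0.000315), P4hb, a subunit of collagen prolyl hydroxylase (-0.78 ± 0.11, adjusted p = 0.000769), and the collagen chaperone Serpinh1 (-0.74 ± 0.11, adjusted p = 0.000769), all in Smn1OE against Bap1KO. In Bap1KO against WT, 0 of the 21 and 1 of the 18 were called lower, the oxidase gene Ero1lb (log2 -1.11 ± 0.16, adjusted p = 0.00263), and 5 and 8 with the media batch as a block, where 17.2% of all genes were called lower. The related oxidase gene Ero1l, with 108133 reads in all against 2995 for Ero1lb, went the other way. Its log2 difference was 0.42 ± 0.14 (adjusted p = 0.0786 in edgeR, and 0.000216 with the block). In Smn1OE against WT, Ero1l was called higher (log2 0.66 ± 0.14, adjusted p = 0.00217 in edgeR).

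The other lists were called in both directions, several at shares near those of all genes. Of 16 genes of ER-associated degradation, 4 fell and 1 rose in Smn1OE against Bap1KO: Selenos (log2 -0.54 ± 0.08), Erlec1 (-0.54 ± 0.08) and Os9 (-0.38 ± 0.08) were among those lower and Ubxn4 (0.22 ± 0.06) was higher, a call that was lost without Smn1OE replicate 3 or Bap1KO replicate 1. Of 24 other ATF4 targets, 6 (25%) fell and 3 (12.5%) rose in each SMN group, near the shares of all genes. The mitochondrial enzymes of proline and phosphoenolpyruvate synthesis, Pycr1 (log2 -1.43 ± 0.21) and Pck2 (-1.34 ± 0.21), and the glutamine transporter Slc1a5 (-1.08 ± 0.17) fell in Smn1OE against Bap1KO, and the cationic amino acid transporter Slc7a1 rose (0.49 ± 0.09). Between Bap1KO and WT, 2 of the 24 were called, both higher: the transcription factor Atf3 (0.74 ± 0.19, adjusted p = 0.0326) and the secreted glycoprotein Stc2 (0.54 ± 0.14, adjusted p = 0.034). The call of Atf3 held when WT replicate 2 was left out and was lost with any other omission from these groups (adjusted p up to 0.120), and that of Stc2 held when Bap1KO replicate 2 was left out and was otherwise lost (adjusted p up to 0.114). With the media batch as a block, 5 of the 24 were higher (Atf3, Stc2, Gdf15, Atf5 and Slc7a3) and 5 lower (Cth, Slc38a2, Slc1a5, Pck2 and Cebpb), where 11.9% of all genes were called higher and 17.2% lower. Of 18 cytosolic tRNA synthetases, also targets of ATF4, 4 rose and 1 fell in each SMN group. Rars (0.58 ± 0.10), Wars (0.51 ± 0.09) and Nars (0.28 ± 0.07) rose and Mars1 (-0.32 ± 0.07) fell in Smn1OE against Bap1KO.

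A list of 11 genes held the other eIF2alpha kinases, subunits of eIF2 and eIF2B, and the phosphatase subunit gene Ppp1r15b. Of these, 2 rose in Smn1OE against Bap1KO, the eIF2 subunits Eif2s1 (log2 0.33 ± 0.08) and Eif2s2 (0.26 ± 0.08), and 1 in Smn1OE_K186R. The call of Eif2s2 was lost without Smn1OE replicate 2 or 3 or Bap1KO replicate 3 (adjusted p up to 0.101 in edgeR). The count in Smn1OE_K186R was 0 in 4 of the 6 omissions. Of 7 genes of ER-linked apoptosis, the BH3-only genes Pmaip1 (2.03 ± 0.21, adjusted p = 0.000129) and Bcl2l11 (0.77 ± 0.18, adjusted p = 0.00744) rose and Casp12 fell (-1.25 ± 0.31, adjusted p = 0.0104) in Smn1OE against Bap1KO. Pmaip1 was at 12.5 to 21.2 CPM in Bap1KO, 58.0 to 71.3 in Smn1OE and 55.5 to 57.9 in Smn1OE_K186R. Of 11 genes of the cytosolic heat shock response, 3 rose and 3 fell in Smn1OE: Hsp90aa1 (0.52 ± 0.08) rose, and Hspa1b (-0.93 ± 0.19) and Hspa1a (-0.91 ± 0.23), near-identical copies whose reads may be shared, fell. Without Smn1OE replicate 2 or Bap1KO replicate 3, 1 of these 11 rose and 2 fell. Of 7 genes of the mitochondrial unfolded protein response, the chaperones Hspa9 (0.22 ± 0.06) and Hspd1 (0.26 ± 0.08) rose and the protease Clpp (-0.28 ± 0.09) fell, and each of these calls was lost without 4 of the 6 libraries (adjusted p up to 0.0686, 0.0930 and 0.0985). None of the 7 was called without Smn1OE replicate 3 or Bap1KO replicate 1.

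**Figure D4:**
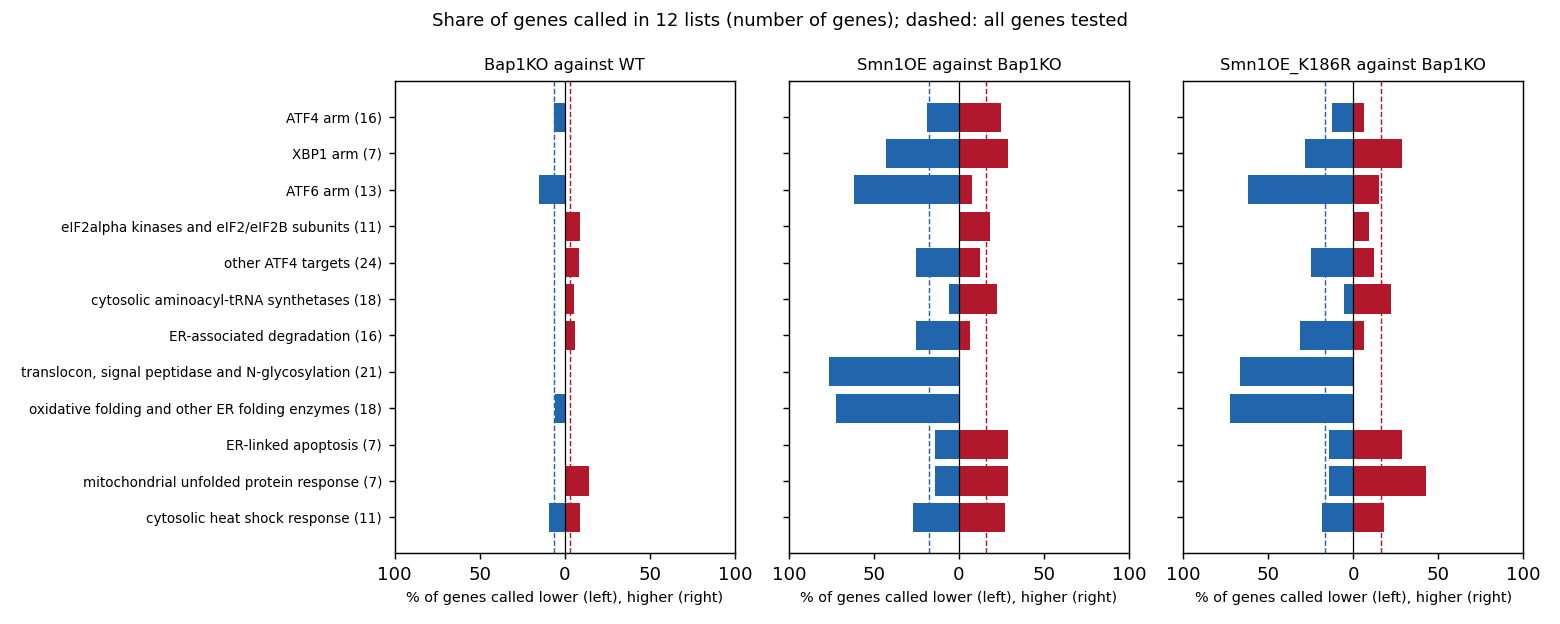
Share of genes called higher (red, right of 0) or lower (blue, left of 0) at an adjusted p under 0.05 in the 3 arms of the 36 genes and in 9 further lists (rows, with the number of genes tested), in 3 comparisons; dashed lines give the shares among all genes tested. In the SMN groups the bars of the ATF6 arm and of the 2 ER import and folding lists reach furthest to the lower side.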

How the data were processed

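RNA from 12 libraries was sequenced as paired-end TruSeq libraries. The authors deposited raw read counts per Ensembl gene, 1 file per library; per the submitters' processing notes the build was GRCm39 and the tools STAR 2.6.1, HTSeq 0.9.1, CASAVA 1.8.2, DESeq2 and cutadapt 1.4.2. The strand setting and annotation release are not given in the sources used here. The 5 closing rows of each file, which name no gene (11.1 to 14.6% of all records), were left out. Symbols and exon lengths came from GENCODE M21, and promoter windows from RefSeq (GRCm38.p6).

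The test was that of edgeR 4.0.16 (R 4.3.3), with TMM scaling, filterByExpr with a minimum count of 10, a quasi-likelihood fit of 4 groups over 12 libraries (8 residual degrees of freedom), 2-sided, with Benjamini-Hochberg adjustment over all 16597 genes. The script was tested on simulated data. The members and lists were chosen with earlier results of these data known. Comparisons with WT or with Bap1KO share those control libraries. Library values are given for Atf4, Ddit3, Xbp1, Atf6, Hspa5, members called in Bap1KO against WT, and the 6 members of smallest adjusted p in each SMN group against Bap1KO; of other lists at most 4 called genes are named. Same-batch libraries deviated together (r across genes 0.24 to 0.43); no stated design has this block, so it is an alternative, with DESeq2 1.42.0, RLE scaling, no filter, fewer groups, limma 3.58.1 voom and leaving out each library. Precision is limited by 3 libraries per group.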

Additional observations from a re-analysis of the deposited data

How the results depend on the processing

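The count of 3 members called in Bap1KO against WT became 6 with DESeq2, 5 with no filter on low counts and 13 with the replicate block (culture media batch). When each of the 12 libraries was left out, the count ran from 1 to 5 in Bap1KO against WT, 7 to 21 in Smn1OE against Bap1KO, 13 to 19 in Smn1OE_K186R against Bap1KO, 19 to 24 and 20 to 24 in these groups against WT, and 0 to 0 between them. For comparisons across batches the replicate numbers do not pair libraries (same-number r -0.23 to 0.072), and a block on them gave 20, 16, 24 and 25 calls; the batch block gave 0 between the SMN groups. Differences near 0 changed sign. The log2 difference of Hspa5 between Bap1KO and WT became 0.012 with DESeq2, 0.012 with RLE scaling and 0.0034 with only these groups, and ran from -0.036 (without WT replicate 3) to 0.017 (without WT replicate 1); it was 0.0087 without Bap1KO replicate 3. That of Atf4 ran from -0.035 (without Bap1KO replicate 1) to 0.054 (without WT replicate 1), with -0.02 and -0.01 without WT replicates 2 and 3. For Smn1OE, Hspa5 ran from -0.14 (without Smn1OE replicate 3) to 0.018 (without Smn1OE replicate 1) against Bap1KO, and from -0.15 to 0.0085 without the same libraries against WT. Between the SMN groups, Xbp1 ran from -0.19 (without Smn1OE replicate 1) to 0.0022 (without Smn1OE replicate 3), Hspa5 from -0.14 (without Smn1OE_K186R replicate 3) to 0.043 (without Smn1OE replicate 3), with 0.0051 without Smn1OE_K186R replicate 2, and Ddit3 from -0.35 to 0.053 (without Smn1OE_K186R replicates 3 and 2). Of all genes, 1614 were called in Bap1KO against WT, 2595 with DESeq2 and 4814 with the block. The cause was not tested. Whether depth limits these results was not tested.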
